A study of Mus musculus with 8 samples.

Results

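The genes described here are 10 transcripts of interleukin 6 family signalling, its inducible inhibitor and the acute phase: Il6ra, Il6st, Osmr, Stat3, Cebpd, Socs3, Ptx3, Lcn2, Serpina3n and Il1rl1. They were chosen by name, with earlier results of these data known. All 10 were among the 13439 genes listed and among the 13120 genes tested. Levels were measured by stranded mRNA sequencing of mouse left ventricles in 8 libraries, 2 in each of 4 groups. Floxed littermates (Lin28afl/fl) keep an intact Lin28a gene, which codes for a protein that binds RNA and keeps let-7 microRNA precursors from being processed. Knockout mice (Lin28aCko, written cKO here) lack it in the heart, per the labels. Hearts of each genotype came from sham-operated mice or from mice with transverse aortic constriction (TAC), a band on the aorta that raises the load on the left ventricle. TAC hearts were taken on day 5; the sources used here do not give the day of the sham hearts, the strain, the age or the driver of the Cre recombinase. The labels do not say that the libraries of a group came from separate animals, and a p-value here speaks only of spread among the libraries sequenced, which may be technical.

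Cytokines of the interleukin 6 family, among them interleukin 6, leukemia inhibitory factor, oncostatin M and cardiotrophin 1, signal through receptor complexes that share the subunit gp130, the product of Il6st. Janus kinases bound to these receptors phosphorylate STAT3, which enters the nucleus and switches on target genes, including its own inhibitor Socs3 and acute phase genes. In the heart gp130 and STAT3 signalling is known as a stress pathway of cardiomyocytes, and in the liver it drives the acute phase response. Il1rl1 belongs to another pathway: it codes for ST2, the receptor of interleukin 33, whose soluble form is used as a marker of heart failure.

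The stretch of 250 bases before the RefSeq start site (build GRCm38.p6) is shown for Socs3, Osmr and Ptx3, the 3 genes whose TAC response differed between genotypes by the test given below. Capitals mark matches to TTCNNNGAA, the core motif bound by STAT factors, which reads the same on both strands.
Socs3, chr11:117969367-117969616, minus strand: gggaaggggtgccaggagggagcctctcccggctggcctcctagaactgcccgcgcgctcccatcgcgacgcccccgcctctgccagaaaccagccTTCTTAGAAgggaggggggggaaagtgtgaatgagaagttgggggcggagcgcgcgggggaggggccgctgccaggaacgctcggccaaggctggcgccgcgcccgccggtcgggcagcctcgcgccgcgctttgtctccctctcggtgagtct
Osmr, chr15:6874314-6874563, minus strand: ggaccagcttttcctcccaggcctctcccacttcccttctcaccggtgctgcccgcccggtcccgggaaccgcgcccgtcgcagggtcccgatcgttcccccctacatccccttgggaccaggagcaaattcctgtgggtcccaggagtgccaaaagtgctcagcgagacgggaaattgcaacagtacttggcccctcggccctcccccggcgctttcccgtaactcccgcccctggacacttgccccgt
Ptx3, chr3:66219637-66219886, plus strand: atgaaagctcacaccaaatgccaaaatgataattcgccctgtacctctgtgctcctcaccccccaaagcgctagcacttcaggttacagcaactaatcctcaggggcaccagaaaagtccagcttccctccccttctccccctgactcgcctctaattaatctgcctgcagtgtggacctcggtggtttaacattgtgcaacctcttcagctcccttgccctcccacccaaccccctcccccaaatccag
Of the 9 members with an entry in the promoter table, 1 held the motif: the match TTCTTAGAA of Socs3 begins 154 bases before the start. The table had no entry for Cebpd. Over all 32851 stretches of this length, 7.02% held TTCNNNGAA and 0.913% its stricter form TTCCNGGAA (8.13% and 1.09% of the 27025 genes in the table), of which every match is also a match of the first; no member held the stricter form. A match describes the letters in this window only. The windows of Socs3, Osmr and Lcn2 lie inside the GENCODE gene spans given below, which start further upstream. For these 3 genes the bases before the GENCODE start were not searched.

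Library totals were 10315902 to 21871570 reads, so that 1 read was worth 0.0457 to 0.0969 CPM (counts scaled to a common library total), the unit of all levels below. All 10 cardiomyocyte markers fixed for this tissue were listed, with a summed level of 61529.7 to 91803 CPM. Lin28a transcripts were not analysed here, and genotype was taken from the labels alone. The atrial light chain gene Myl7 stood at 65.0 to 133 CPM in the second library of floxed sham, of cKO sham and of cKO TAC, while the other 5 libraries had 0.511 to 6.16 CPM, and the X-inactivation RNA Xist at 44.3 CPM in cKO sham 2 against at most 0.173 CPM elsewhere. Tests were made by limma on log2(CPM + 1), which understates changes of genes near or below 1 CPM, and a gene passed at a Benjamini-Hochberg adjusted p under 0.05 over all genes tested. Between TAC and sham in floxed hearts the median of all genes was 0.14, and RLE scaling, which centres it, moved the split of calls from 3655 higher and 1907 lower to 2978 and 2598. The same scaling moved the split between genotypes in TAC hearts from 1101 higher and 2162 lower to 1421 and 1751, and the split of the interaction from 647 and 1204 to 843 and 916.

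In floxed hearts 8 of the 10 genes rose after TAC and 2, Il6st and Il1rl1, did not pass, where 42.4% of all genes tested passed and 27.9% passed as higher. Their median log2 difference was 1.57. In cKO hearts 1 of the 10, Stat3, rose, where 2.53% of all genes passed and 2.09% passed as higher, and the median was 0.55. Levels of both TAC libraries lay above both sham libraries for 9 genes in floxed hearts, where 46.7% of all genes did so, and for 4 in cKO hearts, where 23% did so. The reverse order held for 0 of the 10 in either genotype, against 28.9% of all genes in floxed and 19.9% in cKO hearts. The TAC response of Socs3, Osmr and Ptx3 was smaller in cKO than in floxed hearts by the interaction term of the same fit. These 3 calls stand against 14.1% of all genes passing the interaction with 9.18% passing with a smaller and 4.93% with a larger value in cKO hearts. Ptx3 was tested only through its level in the floxed TAC libraries, so its place among these calls is no independent support.

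**Figure D1:**
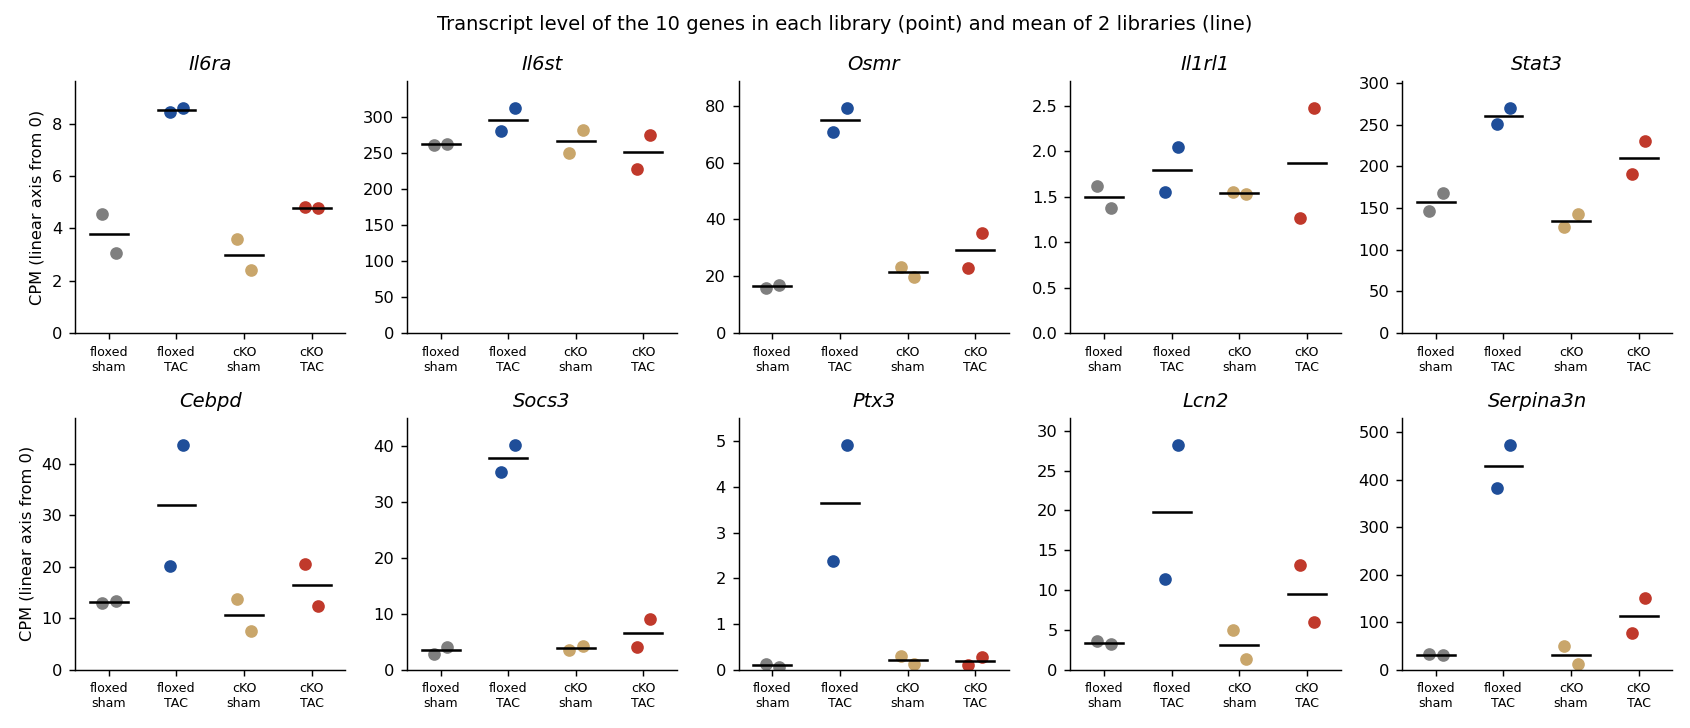
Level in CPM (linear axis from 0) of each of the 10 genes in the 4 groups, each dot being 1 library and each bar a group mean. The floxed TAC libraries of Socs3, Osmr, Ptx3, Serpina3n, Il6ra and Stat3 lie above all 6 other libraries. Il6st and Il1rl1 show little separation between groups.

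Il6ra (chromosome 3, 89864059 to 89913196), the receptor subunit that binds interleukin 6 itself, stood at 4.54 and 3.06 CPM in the floxed sham libraries and at 8.46 and 8.59 CPM in the floxed TAC libraries. In cKO hearts it stood at 3.59 and 2.39 CPM after sham and at 4.80 and 4.78 CPM after TAC. Both TAC libraries were above both sham libraries in each genotype, and the floxed TAC pair was the highest. The rise in floxed hearts was log2 1.01 ± 0.24 (SE, limma adjusted p = 0.00752), and it missed the threshold without floxed sham 2 (log2 0.78, adjusted p = 0.0705). In cKO hearts the difference was log2 0.55 ± 0.24 (adjusted p = 0.285).

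Il6st (chromosome 13, 112464070 to 112510086), the shared signal-transducing subunit gp130, was at 260.2 and 263 CPM in floxed sham and at 280.3 and 312 CPM in floxed TAC libraries. It was at 249 and 282 CPM in cKO sham and at 228 and 275 CPM in cKO TAC libraries. Both floxed TAC libraries were above both floxed sham libraries, and the cKO groups overlapped. The log2 difference was 0.18 (95% interval -0.10 to 0.45, adjusted p = 0.280) in floxed hearts and -0.08 (-0.36 to 0.19, adjusted p = 0.803) in cKO hearts, so that changes of more than about 0.45 lay outside both intervals.

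Osmr (chromosome 15, 6813577 to 6874969) codes for the subunit that pairs with gp130 to bind oncostatin M. Its level was 16.0 and 17.0 CPM in floxed sham and 70.8 and 79.3 CPM in floxed TAC libraries. It was 23.4 and 19.8 CPM in cKO sham and 22.8 and 35.4 CPM in cKO TAC libraries. The floxed TAC pair stood apart from all other libraries, and the cKO TAC pair overlapped the cKO sham pair. Osmr rose 4.55-fold in the group means of floxed hearts (log2 2.12 ± 0.20, limma adjusted p = 5.29e-05). In cKO hearts the means differed 1.35-fold (log2 0.39 ± 0.20, adjusted p = 0.369). The response in cKO hearts was smaller by log2 1.73 (-1.73 ± 0.28, adjusted p = 0.00734), a call that held in each of the 18 alternatives tried.

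Among the other receptors of the family the direction differed. Lifr, the receptor subunit for leukemia inhibitory factor, fell in floxed hearts from 63.3 ± 2.96 to 32.4 ± 1.43 CPM (SD, n = 2, log2 -0.94, limma adjusted p = 0.00113). In cKO hearts it stood at 55.1 ± 1.91 CPM after sham and 52.2 ± 12.3 CPM after TAC. The responses of Lifr differed by log2 0.85 (limma adjusted p = 0.0342). Of the 7 receptor genes of the list, members included, 3 were higher and 1 lower in floxed hearts, where 27.9% and 14.5% of all genes were, and 0 passed in cKO hearts by limma, where 2.53% of all genes did. The median of the list was 0.18 in floxed and -0.07 in cKO hearts, against 0.14 and 0.02 over all genes tested.

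The ligands were low in number of reads. Il6 had 0 reads in both floxed sham and both cKO sham libraries, 1.05 and 1.39 CPM in floxed TAC libraries (53 reads) and 0.0552 and 0.173 CPM in cKO TAC libraries (4 reads). Il6 was at least 13.1-fold higher in floxed TAC than in floxed sham libraries, taking as floor 3 reads over the group. The pooled ratio of cKO TAC to floxed TAC was 0.0923 (exact 95% interval 0.0243 to 0.251, counting error only). Lif, leukemia inhibitory factor, had 5 reads in floxed sham, 166 in floxed TAC, 11 in cKO sham and 11 in cKO TAC libraries. Both floxed TAC libraries of Lif, at 3.52 and 4.13 CPM, stood above the other 6, which lay at 0.0600 to 0.679 CPM.

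Il6 and Lif reached 1 CPM, which a test needed in 2 or more libraries, only in the floxed TAC libraries. They were thus tested only through the group in which they were high, and their calls are no independent support for that. By limma Il6 rose in floxed hearts (log2 1.15, adjusted p = 0.00423) and was lower in cKO than floxed hearts after TAC (log2 -0.99, adjusted p = 0.0167). Its interaction term missed the threshold (log2 -0.99, limma adjusted p = 0.0829). Lif rose in floxed hearts (log2 2.06, limma adjusted p = 0.000325), stood at log2 -0.17 in cKO hearts (limma adjusted p = 0.825), and its interaction passed (log2 -2.23, adjusted p = 0.00978). Osm, which codes for the ligand of the Osmr and gp130 pair, was below the level needed for a test. It had 2 reads in floxed sham, 38 in floxed TAC, 2 in cKO sham and 1 in cKO TAC libraries, and the pooled ratio of floxed TAC to floxed sham was 14.0 (exact 95% interval 3.63 to 120).

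The ligand gene Clcf1 was at 0.742 ± 0.224 CPM in floxed sham and 1.47 ± 0.635 CPM in floxed TAC hearts (limma adjusted p = 0.209). After TAC it was lower in cKO hearts, at 0.165 ± 0.234 CPM (limma log2 -1.07, adjusted p = 0.0246). Clcf1 too reached 1 CPM, the level needed for a test, only in the floxed TAC libraries. Ctf1, cardiotrophin 1, moved the other way from the ligands above: it fell in floxed hearts from 6.27 ± 2.26 to 2.70 ± 0.650 CPM (log2 -0.95, limma adjusted p = 0.0289) and was at 5.88 ± 2.29 and 4.001 ± 0.0360 CPM in cKO sham and TAC hearts. Il11 was not found among the 13439 genes listed, so no level of it is given.

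**Figure D2:**
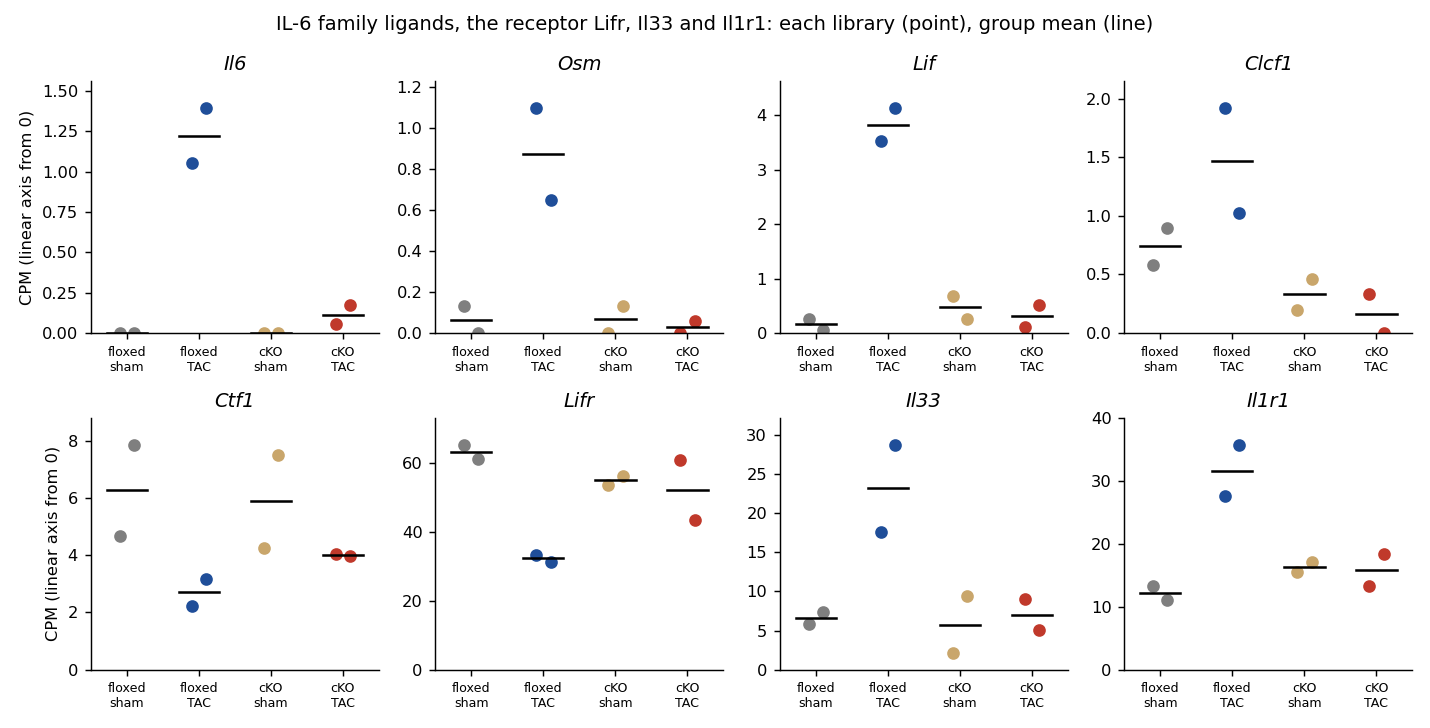
Level in CPM (linear axis from 0) of 5 ligand genes of the family, the receptor Lifr, Il33 and Il1r1 in the 4 groups, each dot being 1 library and each bar a group mean. Il6, Osm and Lif are highest in the 2 floxed TAC libraries, while Ctf1 and Lifr are lowest there.

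Stat3 (chromosome 11, 100885098 to 100939540), the transcription factor of the pathway, was at 147 and 168 CPM in floxed sham and 251 and 269.9 CPM in floxed TAC libraries. It was at 127 and 143 CPM in cKO sham and 191 and 229.9 CPM in cKO TAC libraries. Both TAC pairs lay above all 4 sham libraries. Stat3 rose by log2 0.73 ± 0.13 in floxed hearts (limma adjusted p = 0.00154) and by log2 0.63 ± 0.13 in cKO hearts (adjusted p = 0.0360). The cKO call held in 9 of the 19 alternatives. It was lost without any 1 of the 8 libraries other than cKO TAC 1 (adjusted p from 0.0647 to 0.161), by limma-voom (0.0621), when only the 4 cKO libraries were fitted (0.146) and when the 3 libraries with atrial transcripts were left out (0.226). The responses differed by log2 -0.09 (95% interval -0.50 to 0.31, adjusted p = 0.767), and the sign of this difference turned under RLE (0.03) and TMM (0.05) scaling.

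The related factors Stat5a and Stat5b fell in floxed hearts, by log2 -0.96 (limma adjusted p = 0.000622) and -0.64 (limma adjusted p = 0.00102). Stat5a stood at 36.9 ± 1.32 CPM after sham and 18.5 ± 2.98 CPM after TAC. In cKO hearts its means were 33.6 ± 0.991 and 27.2 ± 0.681 CPM, and by limma neither Stat5a (adjusted p = 0.351) nor Stat5b (adjusted p = 0.340) passed. Of the 7 kinases and STAT factors, Stat3 included, 1 was higher, 2 were lower and 4 did not pass in floxed hearts, a share close to the 42.4% of all genes that passed.

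Cebpd (chromosome 16, 15887286 to 15891031) codes for C/EBP delta, a transcription factor induced by STAT3 that acts on acute phase genes. It was at 13.04 and 13.32 CPM in floxed sham and 20.1 and 43.7 CPM in floxed TAC libraries. It was at 13.8 and 7.57 CPM in cKO sham and 20.5 and 12.3 CPM in cKO TAC libraries. Floxed TAC 2 alone stood far above the rest. The rise in floxed hearts was log2 1.11 ± 0.37 (limma adjusted p = 0.0362). It fell to log2 0.57 (adjusted p = 0.280) without floxed TAC 2 and missed the threshold without floxed sham 1 (adjusted p = 0.131) or floxed sham 2 (adjusted p = 0.117). It also missed it under RLE scaling (adjusted p = 0.0675), under TMM scaling (adjusted p = 0.0683) and without the 3 libraries with atrial transcripts (adjusted p = 0.0677). In cKO hearts the difference was log2 0.59 ± 0.37 (adjusted p = 0.476).

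Socs3 (chromosome 11, 117966079 to 117970047), whose protein binds gp130 and its kinases and shuts the signal off, was highest in the floxed TAC pair. It was at 2.85 and 4.14 CPM in floxed sham and 35.3 and 40.2 CPM in floxed TAC libraries. It was at 3.59 and 4.25 CPM in cKO sham and 4.14 and 9.10 CPM in cKO TAC libraries. One cKO TAC library lay within the range of the sham libraries and the other above it, and both lay far below floxed TAC. The ratio of group means after TAC to sham was 10.8 in floxed hearts and 1.69 in cKO hearts.

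Socs3 rose by log2 3.12 ± 0.30 in floxed hearts (limma adjusted p = 6.98e-05), against log2 0.55 ± 0.30 in cKO hearts (adjusted p = 0.407). The interaction was log2 -2.56 ± 0.43 (adjusted p = 0.00878). It passed in 17 of 18 alternatives and missed the threshold without floxed sham 1 (log2 -2.36, adjusted p = 0.0511). Among the other regulators of the list, Ptpn6, a phosphatase of blood cells, rose in floxed hearts from 4.76 ± 1.59 to 21.2 ± 0.630 CPM (log2 1.98, limma adjusted p = 0.000598), and Cish, an inhibitor induced by STAT5, fell from 232 ± 51.1 to 140.1 ± 48.8 CPM (log2 -0.75, limma adjusted p = 0.0225). In floxed hearts 2 of the 7 tested regulators, Socs3 included, were higher, 1 was lower and 4 did not pass. This share is close to the 42.4% of all genes that passed. By limma 0 of the 7 passed in cKO hearts, where 2.53% of all genes did.

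**Figure D3:**
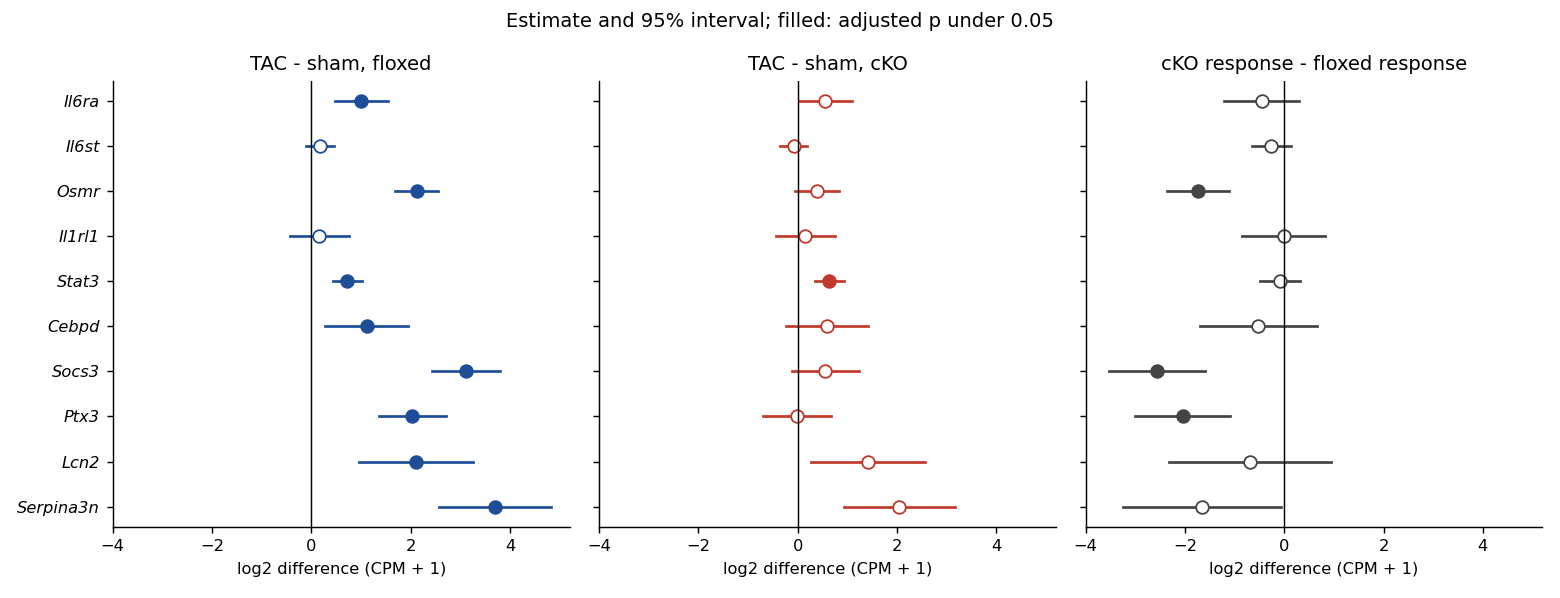
Log2 differences of the 10 genes on the CPM + 1 scale with 95% intervals from limma, for TAC against sham in floxed hearts, the same in cKO hearts, and the difference between both responses. Filled points passed at an adjusted p under 0.05: 8 in floxed hearts, Stat3 in cKO hearts, and Osmr, Socs3 and Ptx3 for the difference.

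Ptx3 (chromosome 3, 66219910 to 66225805) codes for pentraxin 3, a secreted pattern recognition protein made at sites of inflammation. It was at 0.130 and 0.0600 CPM in floxed sham libraries, which are 3 reads in all, and at 2.38 and 4.92 CPM in floxed TAC libraries, which are 158 reads. It was at 0.291 and 0.133 CPM in cKO sham (5 reads) and 0.110 and 0.288 CPM in cKO TAC libraries (7 reads). Ptx3 was therefore near the limit of detection everywhere but in floxed TAC hearts. The ratio of pooled reads after TAC to sham was 38.9 (exact 95% interval 13.1 to 191, counting error only) in floxed hearts and 1.00 (0.274 to 4.002) in cKO hearts.

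By limma Ptx3 rose by log2 2.03 ± 0.30 in floxed hearts (adjusted p = 0.000602), a size that depends on the pseudocount (log2 4.20 with 0.1 in place of 1, and log2 5.05 by edgeR on the recovered reads). The interaction was log2 -2.05 ± 0.43 (adjusted p = 0.0170), and -4.28 with the pseudocount of 0.1. It missed the threshold by limma-voom (adjusted p = 0.0672), without floxed sham 1 (0.0698), without floxed sham 2 (0.0619) and without the 3 libraries with atrial transcripts (0.0595). Without either floxed TAC library Ptx3 fell below the filter and was not tested. It was thus tested only through the group in which it was called high.

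Lcn2 (chromosome 2, 32384633 to 32388252) codes for lipocalin 2, which binds bacterial iron carriers and is stored by neutrophils and secreted by many stressed tissues. Its level was 3.57 and 3.24 CPM in floxed sham, 11.3 and 28.2 CPM in floxed TAC, 4.94 and 1.33 CPM in cKO sham and 13.2 and 5.94 CPM in cKO TAC libraries. TAC libraries lay above sham libraries in both genotypes, and both TAC pairs overlapped each other. The rise in floxed hearts was log2 2.11 ± 0.51 (limma adjusted p = 0.00872) and missed the threshold without floxed TAC 2 (log2 1.49, adjusted p = 0.0854). In cKO hearts the difference was log2 1.42 ± 0.51 (adjusted p = 0.209), and the responses differed by log2 -0.69 (95% interval -2.33 to 0.94, adjusted p = 0.557).

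Serpina3n (chromosome 12, 104406729 to 104414329) codes for a secreted inhibitor of serine proteases. It was at 32.4 and 31.4 CPM in floxed sham and 383 and 474 CPM in floxed TAC libraries. It was at 49.6 and 12.7 CPM in cKO sham and 76.5 and 151 CPM in cKO TAC libraries. Both cKO TAC libraries were above all sham libraries and below both floxed TAC libraries, and the cKO sham pair was widely spread. Serpina3n has close copies in the same gene cluster, and the sources used here do not say how reads that fit several copies were counted.

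Serpina3n rose by log2 3.70 ± 0.50 in floxed hearts (limma adjusted p = 0.000350), a 13.4-fold change of the group means. In cKO hearts the difference was log2 2.04 ± 0.50 (adjusted p = 0.0696), a 3.65-fold change of the means. It passed without cKO sham 1 (log2 2.99, adjusted p = 0.00722) and without cKO TAC 1 (log2 2.53, adjusted p = 0.0405). The interaction did not pass (log2 -1.65 ± 0.71, adjusted p = 0.143). It passed without cKO sham 2, the library with Xist transcripts (log2 -2.60, adjusted p = 0.0162), and without the 3 libraries with atrial transcripts (log2 -3.06, adjusted p = 0.00558).

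Of the 12 tested genes of the acute phase list, Ptx3, Lcn2 and Serpina3n included, 7 were higher in floxed hearts, where 27.9% of all genes were, and 5 did not pass. In cKO hearts 1 was higher, where 2.09% of all genes were: Mt2, which codes for a metallothionein, a metal-binding protein. The medians were 1.71 and 1.09, against 0.14 and 0.02 over all genes. Mt2 rose in both genotypes, from 19.8 ± 4.20 to 105 ± 20.1 CPM in floxed and from 11.9 ± 2.99 to 79.0 ± 38.6 CPM in cKO hearts (limma log2 2.35, adjusted p = 0.000319, and log2 2.56, adjusted p = 0.00470). The interaction of Mt2 was log2 0.21 ± 0.44 (limma adjusted p = 0.781).

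Of the 10 genes of the list of transcription factors and targets that respond to interleukin 6, Cebpd included, 8 were higher in floxed hearts and 1, Timp1, was higher in cKO hearts, where 27.9% and 2.09% of all genes were. The medians were 1.81 and 0.58, against 0.14 and 0.02 over all genes. Timp1, an inhibitor of matrix proteases, went from 2.54 ± 0.477 to 317 ± 63.3 CPM in floxed and from 2.79 ± 0.573 to 39.5 ± 25.2 CPM in cKO hearts. Myc, a growth factor-induced transcription factor, stood at 3.49 ± 1.09 and 29.95 ± 11.3 CPM in floxed sham and TAC hearts and at 12.7 and 4.98 CPM in cKO sham and 6.45 and 9.57 CPM in cKO TAC libraries.

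The interaction of 5 genes of that list passed with a smaller response in cKO hearts, as did that of 9.18% of all genes: Timp1 (log2 -3.21, limma adjusted p = 0.00759), Myc (log2 -2.78, limma adjusted p = 0.0154), the interleukin 4 receptor gene Il4ra (log2 -1.72, limma adjusted p = 0.00744), Bcl3 (log2 -1.44, limma adjusted p = 0.0362), which acts with NF-kB, and the AP-1 factor Fosl2 (log2 -0.82, limma adjusted p = 0.0264). Ccl2, the monocyte chemokine, rose by log2 2.79 in floxed hearts (limma adjusted p = 0.00111), and its interaction missed the threshold (log2 -2.13, limma adjusted p = 0.0578).

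Il1rl1 (chromosome 1, 40429570 to 40465415) was low in every library. It was at 1.62 and 1.38 CPM in floxed sham, 1.55 and 2.04 CPM in floxed TAC, 1.55 and 1.53 CPM in cKO sham and 1.27 and 2.48 CPM in cKO TAC libraries. The groups overlapped in all 4 comparisons. The log2 difference was 0.16 (95% interval -0.44 to 0.75, limma adjusted p = 0.664) in floxed and 0.15 (-0.45 to 0.74, limma adjusted p = 0.843) in cKO hearts. Soluble and membrane forms share this gene and were not told apart.

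The ligand gene Il33 was at 6.58 ± 1.14 CPM in floxed sham and rose to 23.2 ± 7.85 CPM in floxed TAC hearts (log2 1.64, limma adjusted p = 0.0225). It was at 5.74 ± 5.11 and 7.03 ± 2.77 CPM in cKO sham and TAC hearts (limma adjusted p = 0.712). Il1r1, a receptor of interleukin 1, and the adaptor Myd88 rose in floxed hearts by log2 1.31 and 0.89 (limma adjusted p = 0.000729 and 0.00137). Both had smaller responses in cKO hearts (log2 -1.36, adjusted p = 0.0170, and log2 -0.9998, adjusted p = 0.0182). Of the 8 tested genes of the interleukin 33 and interleukin 1 branch 5 were higher in floxed hearts, where 27.9% of all genes were, and 0 passed in cKO hearts by limma, where 2.53% of all genes did. The medians were 0.92 and 0.16.

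**Figure D4:**
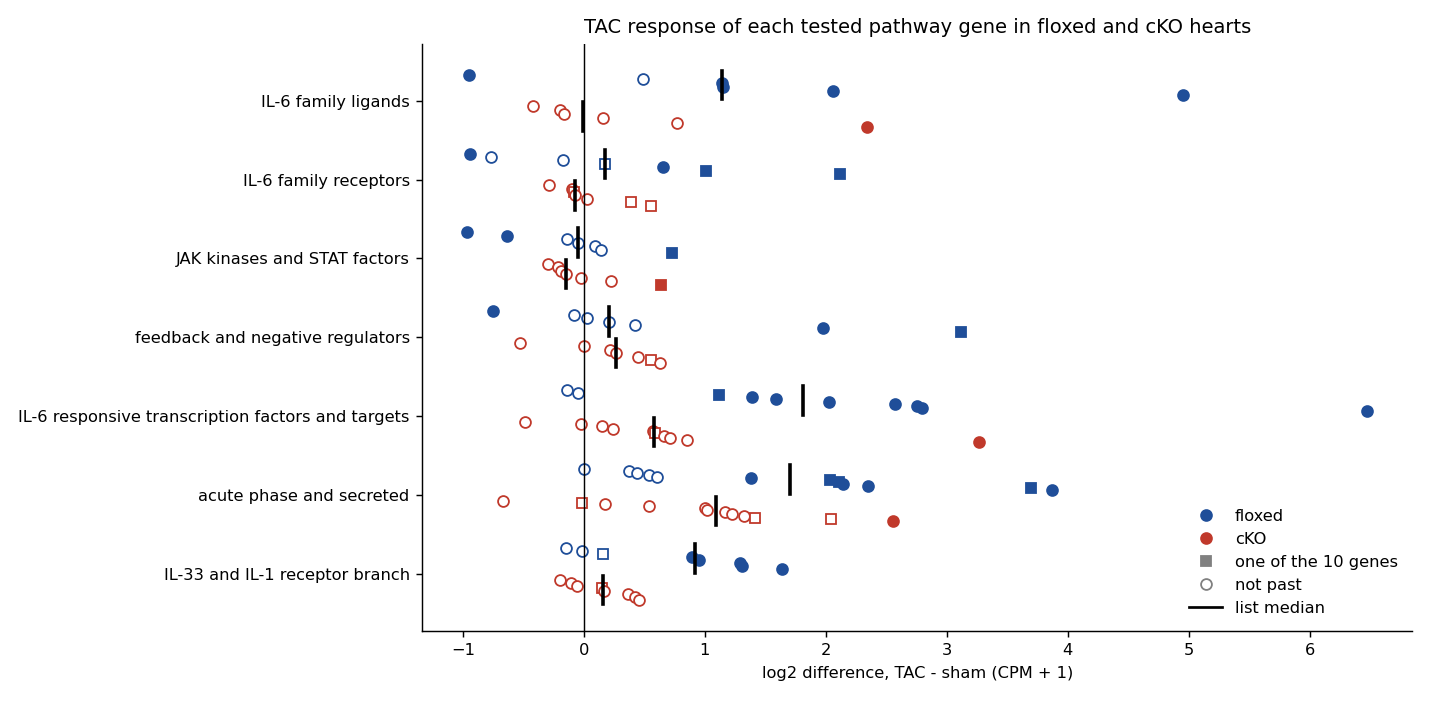
TAC against sham on the log2(CPM + 1) scale for every tested gene of 7 pathway lists, in floxed (blue) and cKO (red) hearts, with squares for the 10 genes, filled symbols past the threshold and bars at list medians. In floxed hearts 30 of 57 genes were higher and 5 lower, and in cKO hearts 4 were higher and 0 lower.

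Over the pathway lists together, 57 of 74 genes were tested. In floxed hearts 30 were higher and 5 lower, and their median was 0.73. In cKO hearts 4 were higher and 0 lower, with a median of 0.23. Of the 47 that are not among the 10 genes, 22 were higher and 5 lower in floxed hearts, 57.4% in all, where 42.4% of all genes passed. In cKO hearts 3 of these 47 passed, Timp1 and Mt2 among them, which is 6.38% where 2.53% of all genes passed. The interaction passed for 11 of them, 10 with a smaller value in cKO hearts and 1, Lifr, with a larger one, 23.4% in all where 14.1% of all genes passed. The lists were chosen with earlier results of these data known, so these shares are no independent support. Il6, Lif and Clcf1, counted among the 47, were tested only through the floxed TAC libraries. Il6 and Lif are among the 22 called higher in floxed hearts, and Lif is among the 10.

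In sham hearts no difference between cKO and floxed libraries was detectable for the 10 genes with 2 libraries a group. By limma 0 of the 10 passed, 0 had an unadjusted p under 0.05, and edgeR, DESeq2 and limma-voom also called 0, where 0.0534% of all genes passed by limma and 0.00762% passed as lower. Both cKO sham libraries were above both floxed sham libraries for Osmr and Ptx3 and below them for Stat3, where 24.9% and 17.1% of all genes did so. Osmr stood at 21.6 ± 2.49 CPM in cKO and 16.5 ± 0.679 CPM in floxed sham hearts (log2 0.36, 95% interval -0.07 to 0.80, limma adjusted p = 0.703). Of the 57 pathway genes 0 passed by limma and 6 had an unadjusted p under 0.05, as did 1013 of all 13120 genes. In cKO sham 2 Serpina3n, Lcn2 and Cebpd were at 12.7, 1.33 and 7.57 CPM, each the lowest of all 8 libraries.

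After TAC 4 of the 10 genes were lower in cKO than in floxed hearts and 0 were higher, where 24.9% of all genes passed, 16.5% as lower and 8.39% as higher. These were Socs3 (log2 -2.42 ± 0.30, limma adjusted p = 0.00126), Osmr (log2 -1.37 ± 0.20, limma adjusted p = 0.00215), Ptx3 (log2 -1.90 ± 0.30, limma adjusted p = 0.00305) and Serpina3n (log2 -1.98 ± 0.50, limma adjusted p = 0.0192). The mean of Socs3 was 6.62 ± 3.51 CPM in cKO TAC and 37.8 ± 3.42 CPM in floxed TAC hearts. The mean of Serpina3n was 114 ± 52.5 against 428 ± 64.7 CPM, and its call was lost without floxed TAC 1 (adjusted p = 0.0701), floxed TAC 2 (0.113) or cKO TAC 1 (0.128). Both cKO TAC libraries were below both floxed TAC libraries for 7 of the 10 genes, where 40.2% of all genes did so, and above them for 0, where 23.6% did so.

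Il6ra came close to the threshold after TAC (log2 -0.72 ± 0.24, limma adjusted p = 0.0532) and passed in 5 of 19 alternatives, among them limma-voom (adjusted p = 0.0295) and the fit with the replicate number as a block (adjusted p = 0.0499). Stat3 differed by log2 -0.31 ± 0.13 (limma adjusted p = 0.106) and passed without cKO TAC 2 (log2 -0.44, adjusted p = 0.0396). Cebpd differed by log2 -0.86 ± 0.37 (limma adjusted p = 0.122) and passed without floxed TAC 1 (log2 -1.40, adjusted p = 0.0450). Lcn2, Il6st and Il1rl1 did not pass in any alternative.

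Markers of several cell types moved between the same groups. The 12 macrophage markers, all listed, summed to 422 to 431 CPM in floxed sham, 2219 to 2539.6 CPM in floxed TAC, 347 to 458 CPM in cKO sham and 767 to 1062 CPM in cKO TAC hearts. Of these markers 12 were higher after TAC in floxed and 10 in cKO hearts, where 27.9% and 2.09% of all genes were. The 9 fibroblast markers summed to 1565 to 1682 CPM in floxed sham, 12076 to 15540.3 CPM in floxed TAC, 1675 to 1898 CPM in cKO sham and 3521 to 5863 CPM in cKO TAC hearts. Of the 9, 7 were higher after TAC in floxed and 4 in cKO hearts. The genes moved unequally. Between floxed sham and TAC libraries Col1a1 went from 165 and 207 to 3413 and 4100 CPM. Pdgfra went from 53.8 and 53.7 to 65.2 and 70.6 CPM. Cardiomyocyte markers summed to 61529.7 to 64304 CPM in floxed TAC and 75133 to 86767 CPM in cKO TAC hearts. After TAC 1 of these 10 was higher and 6 were lower in floxed hearts, and 0 passed in cKO hearts. None of the 9 endothelial markers passed in either genotype. Of the 8 smooth muscle and pericyte markers 3 were higher and 3 lower in floxed hearts, and 1 was higher and 2 were lower in cKO hearts. Over all genes 27.9% were higher and 14.5% lower in floxed hearts, against 2.09% and 0.442% in cKO hearts.

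Neutrophil markers, of which 5 of 13 were listed, summed to 20.7 to 20.9 CPM in floxed sham, 31.5 to 32.8 CPM in floxed TAC, 23.2 to 25.7 CPM in cKO sham and 26.0 to 26.9 CPM in cKO TAC hearts. After TAC 3 of these 5 were higher in floxed and 0 in cKO hearts, where 27.9% and 2.09% of all genes were. Of the 5, S100a8 and S100a9 were at most 1.35 CPM in every library, and S100a8 was at 0 in floxed sham 2. Csf3r was at 0.843 and 0.960 CPM in floxed sham and 6.40 and 6.27 CPM in floxed TAC libraries. It was at 0.582 and 0.664 CPM in cKO sham and 1.16 and 2.71 CPM in cKO TAC libraries. Most of each sum came from the remaining listed markers, Cxcr2 and Mmp9. Mast cell markers, cells that carry ST2, were listed for 6 of 8 and summed to 11.9 to 14.2, 13.6 to 18.3, 20.7 to 28.5 and 10.9 to 18.04 CPM in sham and TAC hearts of floxed mice and sham and TAC hearts of cKO mice. Mesothelial markers summed to 5.58 to 7.80, 16.4 to 20.7, 8.03 to 10.5 and 8.27 to 12.04 CPM in the same order, and 3 of the 11 lymphocyte markers were listed, at 1.93 to 4.18 CPM in sum. The part of these cells in the results above was not tested, and in bulk tissue a change in the number of cells of a type and a change in RNA per cell cannot be told apart.

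**Figure D5:**
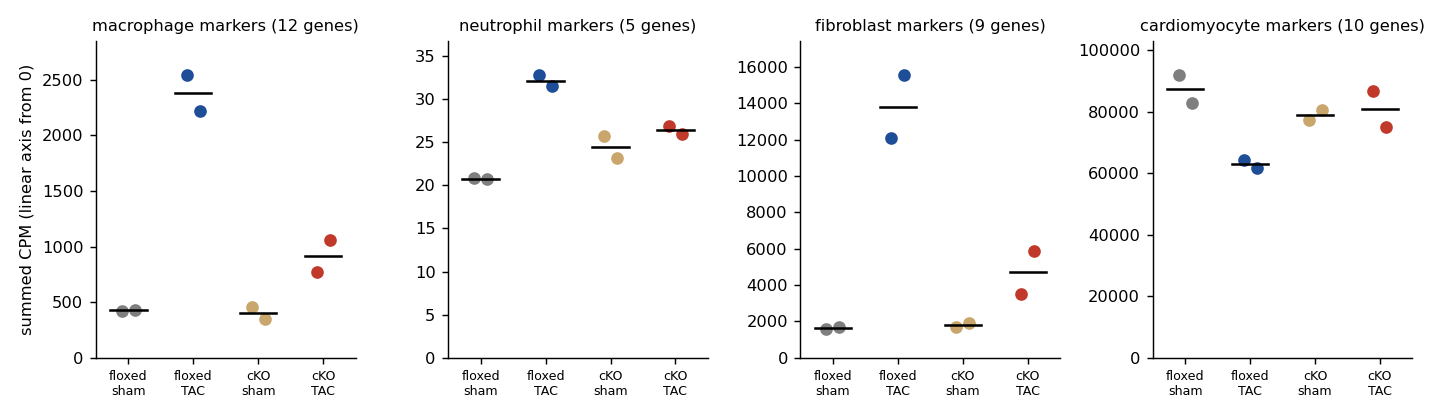
Summed CPM (linear axis from 0) of macrophage, neutrophil, fibroblast and cardiomyocyte markers, each dot being 1 library and each bar a group mean. Macrophage, neutrophil and fibroblast sums are highest and the cardiomyocyte sum is lowest in floxed TAC hearts.

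The genes with patterns closest to Socs3, Osmr, Stat3 and Il1rl1 were taken as the 3 tested genes with the smallest root mean square difference of centred log2(CPM + 1) over the 8 libraries. For Socs3 these were Cdh3 (0.18), Gpr35 (0.21) and Csf2rb (0.21), the last coding for the shared receptor subunit of interleukin 3, interleukin 5 and GM-CSF. Csf2rb stood at 1.43 and 1.92 CPM in floxed sham, 21.4 and 16.1 CPM in floxed TAC, 1.65 and 1.73 CPM in cKO sham and 2.54 and 5.07 CPM in cKO TAC libraries. For Osmr they were Dap (0.10), Ctxn1 (0.10) and Spcs3 (0.11), and for Stat3 Dcun1d3 (0.06), Slc25a23 (0.08) and Arsb (0.09). For Il1rl1 they were Pecam1 (0.08), Ewsr1 (0.09) and Adra1d (0.09). Each figure in brackets is that root mean square difference in log2 units. Il1rl1 was low and changed little between groups, so genes with little change lie close to it.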

How the data were processed

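The deposited values are CPM made by the authors, reads per gene scaled to a common total of reads assigned to genes, with no further scaling between libraries. Bowtie2 2.2.6, HTSeq, DESeq2 and the mm10 genome are named, per the submitters' processing notes; annotation and counting settings were not given in these sources. In each library 100% of values were whole reads within 0.02 reads. Genes that reached 1 CPM in 2 or more libraries entered limma 3.58.1 (R 4.3.3, trended variance, log2(CPM + 1), all 8 libraries, 1 coefficient per group). A list is described by its counts and median. The 10 genes, the lists, the naming rule and the alternatives were chosen with earlier results of these data known. The text names all 10 genes, 6 ligands (Il6, Il11, Lif, Osm, Ctf1, Clcf1), listed genes past the interaction, and the 3 with the largest changes in a list in either TAC comparison. Some genes that this rule names are not reported here. Alternatives used edgeR 4.0.16 and DESeq2 1.42.0 on recovered reads, other pseudocounts, filters, scalings and libraries. Coordinates are from GENCODE M21 (GRCm38, the same assembly as mm10) and promoters from RefSeq.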

Additional observations from a re-analysis of the deposited data

Results flagged for a closer look

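The TAC response of 3 of the 10 genes differed between genotypes by the interaction term of limma, with a smaller response in cKO hearts. The difference was log2 -2.56 for Socs3 (adjusted p = 0.00878), -1.73 for Osmr (adjusted p = 0.00734) and -2.05 for Ptx3 (adjusted p = 0.0170), against 14.1% of all genes tested passing the same term. For all 3 genes both floxed TAC libraries lay above the 6 other libraries. The same order held for Il6ra, Stat3 and Serpina3n, whose interaction did not pass, and its share over all genes was not counted. Ptx3 reached 1 CPM, the level needed for a test, only in the floxed TAC libraries. Its call is thus no independent support, and it missed the threshold in several of the alternatives given above.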

How the results depend on the processing

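Socs3 and Osmr passed in all 19 alternatives for TAC against sham in floxed hearts and for genotype after TAC. Leaving out 1 library at a time gave 5 to 8 of the 10 genes called in floxed hearts, 0 to 2 in cKO hearts, 2 to 5 between genotypes after TAC and 1 to 4 for the interaction; in cKO hearts limma-voom, the fit of the compared groups alone and the fit without the 3 libraries with atrial transcripts (chosen after seeing the data) each called 0. Over all genes the count called in cKO hearts was 332, against 129 by limma-voom, 346 by edgeR, 691 by DESeq2, 45 with the compared groups alone, 62 without the 3 libraries and 73 to 614 leaving out 1 library; in sham hearts it was 7, against 1 by limma-voom, 52 by DESeq2 and 1 to 16; leaving out 1 library gave 3618 to 5921 genes in floxed hearts (5562 with all libraries, fewest without floxed sham 1), 1330 to 3624 between genotypes after TAC (fewest without floxed TAC 2) and 253 to 2918 for the interaction (fewest without floxed sham 1, most without cKO TAC 2). No pairing of the libraries by replicate number was seen over the genes tested (correlations of deviations -0.105 to 0.081). With 2 libraries a group this cannot exclude pairing, and high Myl7 occurred only in second libraries. A fit with the replicate block called 8, 1, 0, 5 and 3 of the 10 genes in floxed, cKO, sham, TAC and interaction comparisons. Sign changes concerned estimates that passed in neither setting. By RLE, TMM, edgeR and DESeq2 in that order, Il6st in sham hearts was -0.00325, -0.00681, -0.00658 and -0.00192, the interaction of Stat3 was 0.0310, 0.0506, 0.0331 and 0.034, and that of Il1rl1 was 0.0611, 0.0734, 0.133 and 0.133. Between genotypes after TAC Il1rl1 was -0.00387 with a pseudocount of 0.1 and -0.0101 by limma-voom. Without the 3 libraries Osmr and Il1rl1 in cKO hearts were -0.0314 and -0.169, Il6st, Lcn2, Serpina3n, Il1rl1 and Cebpd in sham hearts -0.0622, 0.380, 0.599, -0.0396 and 0.0726, and Il1rl1 after TAC -0.298. Leaving out 1 library, estimates in cKO hearts ranged from -0.123 to 0.0912 for Ptx3, -0.218 to 0.0515 for Il6st and -0.162 to 0.454 for Il1rl1. In sham hearts they ranged from -0.0676 to 0.348 for Socs3, -0.0466 to 0.0929 for Il1rl1, -0.0699 to 0.110 for Il6st, -0.919 to 0.433 for Lcn2, -1.27 to 0.622 for Serpina3n and -0.727 to 0.0582 for Cebpd. After TAC Il1rl1 ranged from -0.298 to 0.319, and interactions from -0.225 to 0.0412 for Stat3, -0.321 to 0.296 for Il1rl1 and -1.07 to 0.0146 for Cebpd. The cause was not tested. A lone library left in a group is assumed to vary like the other groups. Depth limits Ptx3, Il6, Osm and Lif, where 3 reads are 0.137 to 0.291 CPM in a library; intervals on pooled reads cover counting error only.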
